A study of Macaca mulatta with 38 samples.

Results

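The mitosis and chromosome segregation genes described here are 45 genes chosen by name for their place in cell division, among 34619 genes in the deposited count table. The choice was made with earlier results of these data known. All 45 were present and all 45 passed the filter on low counts that left 20794 genes for testing. They were followed through 38 bulk RNA-seq libraries of wild-type rhesus macaque (Macaca mulatta) neural stem cells, dissociated from fetal cortex and grown as attached cultures. There were 4 series, named by embryonic day and dissected region: Anterior and Posterior cortex at E42, and Frontal and Occipital cortex at E77. Every culture received FGF2, a growth factor that keeps neural stem cells dividing, each day up to day 5 in vitro. It was then withdrawn, and the cells were moved to NeuroBasal medium with B27, BDNF and NT-3 for differentiation. Days 1, 3 and 5 formed the stem phase, days 6, 7 and 8 the transition phase, and days 11, 14, 17 and, at E77 only, 20 the terminal phase. Each series and day had 1 library, made from RNA of 2 wells, so the libraries of a phase are different days of 1 culture series. The labels do not say that they came from separate animals. P-values of phase comparisons, and of differences between them, therefore measure the spread between days within a series. Those of age and region levels, day slopes and the day 6 step measure what remains after a day effect or slope is removed.

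Cells copy their DNA in S phase and separate it in M phase, and the genes for the second step are switched on together late in the cycle, largely through FOXM1 and the B-MYB protein encoded by MYBL2. Their products wake CDK1 with its cyclin partners, condense the chromosomes, build the kinetochores that hold spindle microtubules, delay anaphase until every chromosome is attached, and then cut cohesion and the cell body. In the developing cortex these genes are read in dividing radial glia and intermediate progenitors and are silent in neurons. In a bulk library, fewer dividing cells and less of each transcript per dividing cell cannot be told apart.

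Library totals ran from 20149635 to 56363300 counts (median 27597365.5). Levels are given as CPM, a gene's counts relative to its library's total scaled by the TMM factors of edgeR, and changes as log2 fold changes with their standard error (SE). Radial glia genes were detected in every library, with lowest counts of 11502 for SOX2, 2509 for PAX6, 9146 for NES and 272 for HES5. The neuronal gene DCX and the astrocyte gene GFAP were too, with lowest counts of 7185 and 16071. Detection alone therefore does not identify the cells. The E42 Anterior series stood apart. Its summed level of 11 fibroblast and mesenchymal markers was 14125 to 39813 CPM in every phase, against 51.5 to 358 CPM in the other 3 series. COL1A1 and COL1A2 had counts in all 38 libraries, though as few as 2 each, and FOXC2 had no count in 20 of them. Microglial and red cell markers were at or near 0 throughout, with PTPRC at 0 in 29 libraries and ALAS2 at 0 in all 38.

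Per unit of transcript length, the most abundant of the genes was TOP2A, the topoisomerase that untangles sister chromatids, with a mean of 66.1 RPKM over the 38 libraries (range 21.0 to 140). It was followed by MKI67, the Ki-67 protein that coats mitotic chromosomes, at 43.6 RPKM, and by PTTG1, the securin that restrains separase, at 41.9 RPKM. The lowest were CENPK, a subunit of the inner kinetochore, at 4.46 RPKM and the checkpoint kinase TTK at 4.8 RPKM. The correlation of each with the median of the other 44 across the 38 libraries, given as a description because libraries of a series share their source, ran from 0.778 for CENPK to 0.985 for the checkpoint kinase BUB1B.

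The first question was how the level of these genes differed between the stem and the terminal phase. All 45 were lower in the terminal phase when the 4 series were averaged, at a Benjamini-Hochberg adjusted p under 0.05 in edgeR's quasi-likelihood test. Over all genes tested, 30.4% were called lower and 31.9% higher in this comparison. The median change of the 45 was -0.94 on the log2 scale (range -1.42 to -0.28), beside a median of 0 over all genes tested.

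CDK1, the kinase that drives entry into mitosis, shows the course. In E77 Occipital its level was 33.8, 42.8 and 48.1 CPM on days 1, 3 and 5, then 33.1, 45.6 and 39.3 CPM on days 6, 7 and 8. It was 23.1, 22.7, 18.2 and 16.6 CPM on days 11, 14, 17 and 20, so that the terminal libraries were all below the stem libraries. In E77 Frontal the stem values were 65.6, 61.7 and 65.1 CPM and the terminal values 36.6, 35.2, 24.6 and 24.5 CPM, again without overlap. In E42 Posterior the stem values were 57.3, 66.0 and 91.8 CPM and the terminal values 50.8, 40.5 and 39.1 CPM, also apart. In E42 Anterior the 51.7, 58.4 and 45.7 CPM of the stem phase overlapped with the 49.6, 31.6 and 34.7 CPM of the terminal phase. Averaged over the series, CDK1 changed by -0.82 ± 0.10 (SE; edgeR adjusted p = 1.14e-08), the smallest change among the 6 genes of mitotic entry.

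The other mitotic entry genes all fell. CCNB1, the cyclin B1 that activates CDK1 and the most abundant of the 6 per length, had a lowest, median and highest level of 48.4, 87.0 and 149 CPM in the 12 stem libraries and 20.3, 39.8 and 67.6 CPM in the 14 terminal libraries. Those pooled ranges overlapped, since the series differed in level. Within series, its change averaged -1.09 ± 0.11 (SE). CDCA3, which triggers the loss of the CDK1 inhibitor WEE1, had the largest change of the 6, -1.27 ± 0.11 on the log2 scale, from a median of 27.5 CPM to 11.7 CPM. CDC25C, the phosphatase that activates CDK1, fell by 1.21 ± 0.12, CCNB2 by 0.97 ± 0.11 and CCNA2 by 0.88 ± 0.09 (SE).

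**Figure D1:**
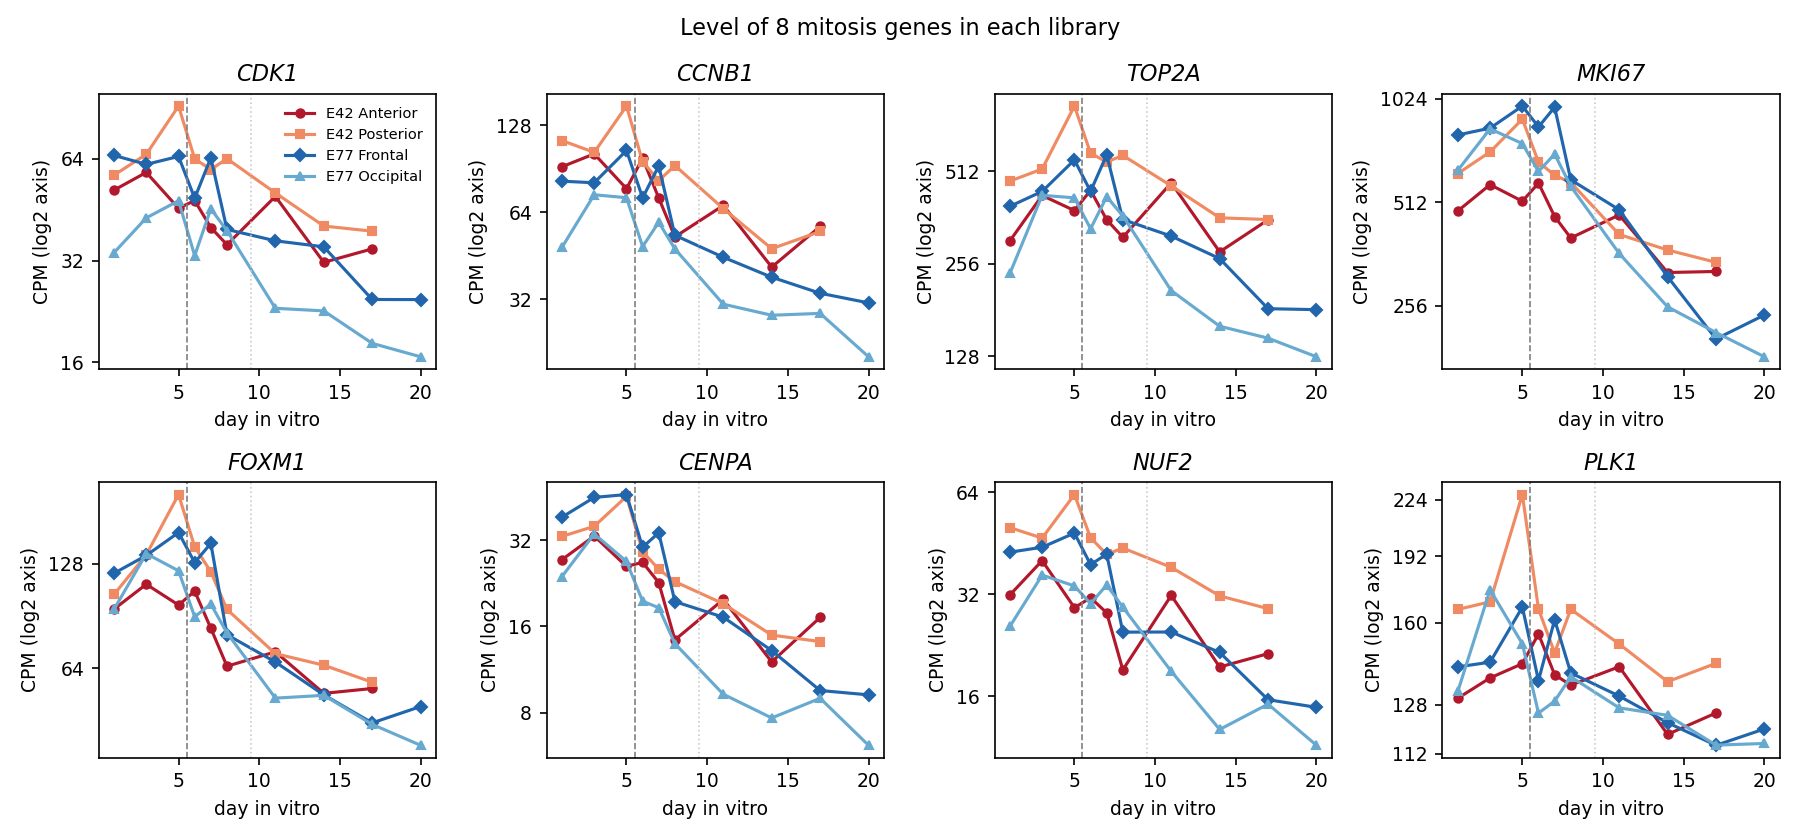
Level of 8 mitosis genes in each of the 38 libraries, in CPM on a log2 axis against day in vitro, 1 line per series; the dashed line marks the end of FGF2 and the dotted line the start of the terminal phase. CDK1 ends at 16.6 CPM in E77 Occipital and 24.5 CPM in E77 Frontal, whereas PLK1 stays between 115 and 227 CPM in every library.

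Among the spindle kinases and microtubule proteins, AURKA, the kinase that matures centrosomes, had the largest fall, 1.01 ± 0.12 on the log2 scale, and NUSAP1, which bundles spindle microtubules, was the most abundant per length and fell by 0.74 ± 0.11. TPX2, the activator of AURKA, fell by 0.95 ± 0.10, DLGAP5 by 0.96 ± 0.11 and HMMR by 0.78 ± 0.11 (SE). PLK1, the polo-like kinase that acts from mitotic entry to cytokinesis, changed least of all 45 genes, by -0.28 ± 0.05 (edgeR adjusted p = 2.09e-05). Its lowest, median and highest levels were 130, 147 and 227 CPM in the stem libraries and 115, 125 and 151 CPM in the terminal libraries. The ratio of its highest to its lowest library was 1.32 to 1.67 within the 4 series. PLK1 is 1 of 11 members that overlap another protein-coding gene in the RefSeq annotation of assembly T2T-MMU8v2.0, which may not be the annotation used for counting; its partners are DCTN5 and ERN2. The others are CCNA2, AURKA, HMMR, NUSAP1, NUF2, SPC25, CENPK, PRC1, ANLN and FOXM1. The libraries were made strand-specific, but whether the counting used strand is not given in the sources used here, so reads of such a gene and its partner may not have been told apart.

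Kinetochore and centromere genes held both the largest change and some of the smaller ones. CENPA, the histone H3 variant that marks centromeres, changed most of all 45 genes, by -1.42 ± 0.12 (SE; edgeR adjusted p = 6.84e-12), from 23.9, 33.4 and 46.2 CPM (lowest, median, highest of 12 stem libraries) to 6.15, 12.6 and 19.9 CPM (14 terminal libraries). Its stem and terminal libraries did not overlap even across series. CENPF, a large corona protein, fell by 0.72 ± 0.13, the kinesin CENPE by 0.66 ± 0.13 and CENPK by 0.63 ± 0.11. In the 4-protein NDC80 complex, which grips microtubule ends, SPC24 fell by 1.24 ± 0.08, SPC25 by 0.94 ± 0.09, NUF2 by 0.89 ± 0.11 and NDC80 itself by 0.88 ± 0.11 (SE).

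The 4 spindle checkpoint genes, whose products hold back anaphase, fell by 1.05 ± 0.09 for the kinase BUB1, 0.92 ± 0.09 for BUB1B, 0.80 ± 0.11 for TTK and 0.78 ± 0.07 for MAD2L1, the inhibitor of CDC20. The 5 genes of anaphase and cohesion release fell as well. ESPL1, the separase that cuts cohesin, fell by 1.35 ± 0.09, from 43.0, 53.3 and 80.8 CPM in the stem libraries to 12.1, 22.1 and 31.8 CPM in the terminal libraries, with no overlap. CDC20, which switches on the anaphase-promoting complex, fell by 1.10 ± 0.09 and PTTG1 by 0.94 ± 0.10. The ubiquitin-conjugating enzyme UBE2C and SGO1, the protector of centromeric cohesion, fell by 0.66 ± 0.11 and 0.62 ± 0.10 (SE).

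In the chromosomal passenger complex, which corrects wrong attachments, the kinase AURKB fell by 1.17 ± 0.11, CDCA8 by 1.08 ± 0.10, BIRC5 (survivin) by 1.02 ± 0.09 and INCENP by 1.02 ± 0.11. The condensin I subunit NCAPH fell by 1.22 ± 0.10, NCAPD2 by 1.01 ± 0.09 and NCAPG by 0.85 ± 0.09. The ATPases SMC2 and SMC4, shared with condensin II, fell by 0.78 ± 0.06 and 0.65 ± 0.08. MKI67 fell by 1.13 ± 0.12, from 482, 737 and 974 CPM to 182, 321 and 486 CPM, where the highest terminal library was just above the lowest stem library. TOP2A fell by 0.70 ± 0.12, from 238, 428 and 836 CPM to 127, 273 and 470 CPM, a wide overlap between series and also within E42 Anterior. Of the cytokinesis genes, the midzone protein PRC1 fell by 1.03 ± 0.11, the scaffold ANLN by 0.92 ± 0.09 and ECT2, the activator of RhoA, by 0.69 ± 0.08. The factors FOXM1 and MYBL2 fell by 1.16 ± 0.11 and 1.15 ± 0.09 (SE), FOXM1 from 94.5, 121 and 203 CPM to 38.3, 53.8 and 71.3 CPM without overlap.

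Markers of other cells moved over the same days. The summed level of 10 neuronal markers was 1532 to 3358 CPM in the stem libraries and 4107 to 6753 CPM in the terminal libraries, with 9 of 10 rising. The summed level of 9 radial glia markers was 7795 to 13665 CPM in the stem and 5507 to 8027 CPM in the terminal libraries, with 7 of 9 falling and 2 rising. Of 9 astrocyte markers, which share SLC1A3 with the radial glia list, 8 rose and 1 fell. Their summed level was 2365 to 9178 CPM in the stem and 2813 to 13044 CPM in the terminal libraries, and in E77 Occipital the phases were apart, at 5157 to 5864 CPM and 6802 to 10676 CPM. Of 7 oligodendrocyte lineage markers, 2 rose over the 4 series and 5 in each E77 series, and the number that fell is not given here. Their sums in E77 Occipital were 912 to 1056 CPM and then 1506 to 3709 CPM. In E42 Posterior they were lower in the terminal phase, at 224 to 285 CPM and then 150 to 190 CPM. The phases overlapped in E42 Anterior (413 to 866 and 504 to 636 CPM) and in E77 Frontal (430 to 585 and 470 to 1340 CPM). All 4 intermediate progenitor markers rose, with sums in E42 Anterior of 5.98 to 14.3 CPM and then 47.9 to 55.4 CPM. Of the 11 fibroblast markers 7 fell and 0 rose, and of 6 endothelial markers 4 fell and 1 rose. Over all genes, 30.4% were called lower and 31.9% higher in the mean of the 4 series. Within a single series the share called higher is not given here. The part of these markers in the change of the mitosis genes was not tested. All 45 genes were also called lower without E42 Anterior (median -1.11). That series had the smallest median fall of the 4, so leaving it out could not test its part.

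Taken series by series, 45 of 45 genes fell in E77 Frontal (median -1.15; 20.7% of all genes called lower), and 44 of 45 in E77 Occipital (median -1.15; 19.6%). In E42 Posterior 42 fell (median -0.95; 17.8%), and in E42 Anterior 23 (median -0.53; 16.2%). In E77 Occipital the exception was UBE2C, with 19.2, 28.3 and 29.5 CPM in the stem and 19.3, 22.6, 15.9 and 15.3 CPM in the terminal libraries. Its change was -0.49 ± 0.22 (SE; edgeR adjusted p = 0.075), and the groups overlapped. It passed without day 1 in the stem phase (edgeR adjusted p = 0.0295) and in limma at a pseudocount of 0.1 (0.0469). In E42 Posterior the exceptions were 3 centromere genes, CENPE at -0.48 ± 0.26, CENPF at -0.60 ± 0.27 and CENPK at -0.22 ± 0.23 (SE). In a fit to its own libraries CENPF and CENPE passed (edgeR adjusted p = 0.0163 and 0.0144), and CENPF also in DESeq2 (0.046) and without day 1 (0.0445). Every terminal library was below every stem library for 45 genes in E42 Posterior and 45 in E77 Frontal, 40 in E77 Occipital and 30 in E42 Anterior. Such separation was not counted over all genes, so these counts have no background share.

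The 22 genes that did not pass in E42 Anterior had estimates between -0.64 for AURKA and -0.01 for TOP2A, none of them above 0. Under other settings AURKA, BUB1B, PTTG1, SGO1, BIRC5, SPC25, ECT2 and MKI67 each passed at least once. The count of genes called in this series was 21 to 30 over those settings, beside 23 in the main run. TOP2A had 304, 427 and 382 CPM in the stem and 470, 280 and 356 CPM in the terminal libraries of that series, so the highest and the lowest library were both terminal. Its change was -0.01 ± 0.25 (SE; edgeR adjusted p = 0.981) and turned to 0.15 without day 14, to 0.07 without day 3 and to 0.01 without day 17. CENPF, at -0.08 ± 0.27, and CENPE, at -0.17 ± 0.26, turned to 0.08 and 0.02 without day 14. MKI67 had 482, 575 and 515 CPM and then 470, 319 and 322 CPM, with no overlap, and its change of -0.50 ± 0.24 had an adjusted p of 0.107 in edgeR. In a fit to the stem and terminal libraries of this series alone MKI67 passed (edgeR adjusted p = 0.0494). The genes that fell most in this series were MYBL2, by 1.04 ± 0.19, ESPL1, by 1.0 ± 0.19, and ANLN, by 0.89 ± 0.20. Without the day 14 library, 14 genes were called in this series. Whether the change differed between the E42 regions was tested directly and 0 of 45 genes passed in edgeR (median difference 0.38, Anterior minus Posterior; 5.44% of all genes called in either direction), with 1 gene, BIRC5, at an unadjusted p under 0.05. Between the E77 regions the test also called 0 of 45 (median -0.01; 1.52% of all genes), with 0 at an unadjusted p under 0.05. DESeq2 and limma called 0 in both tests too.

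**Figure D2:**
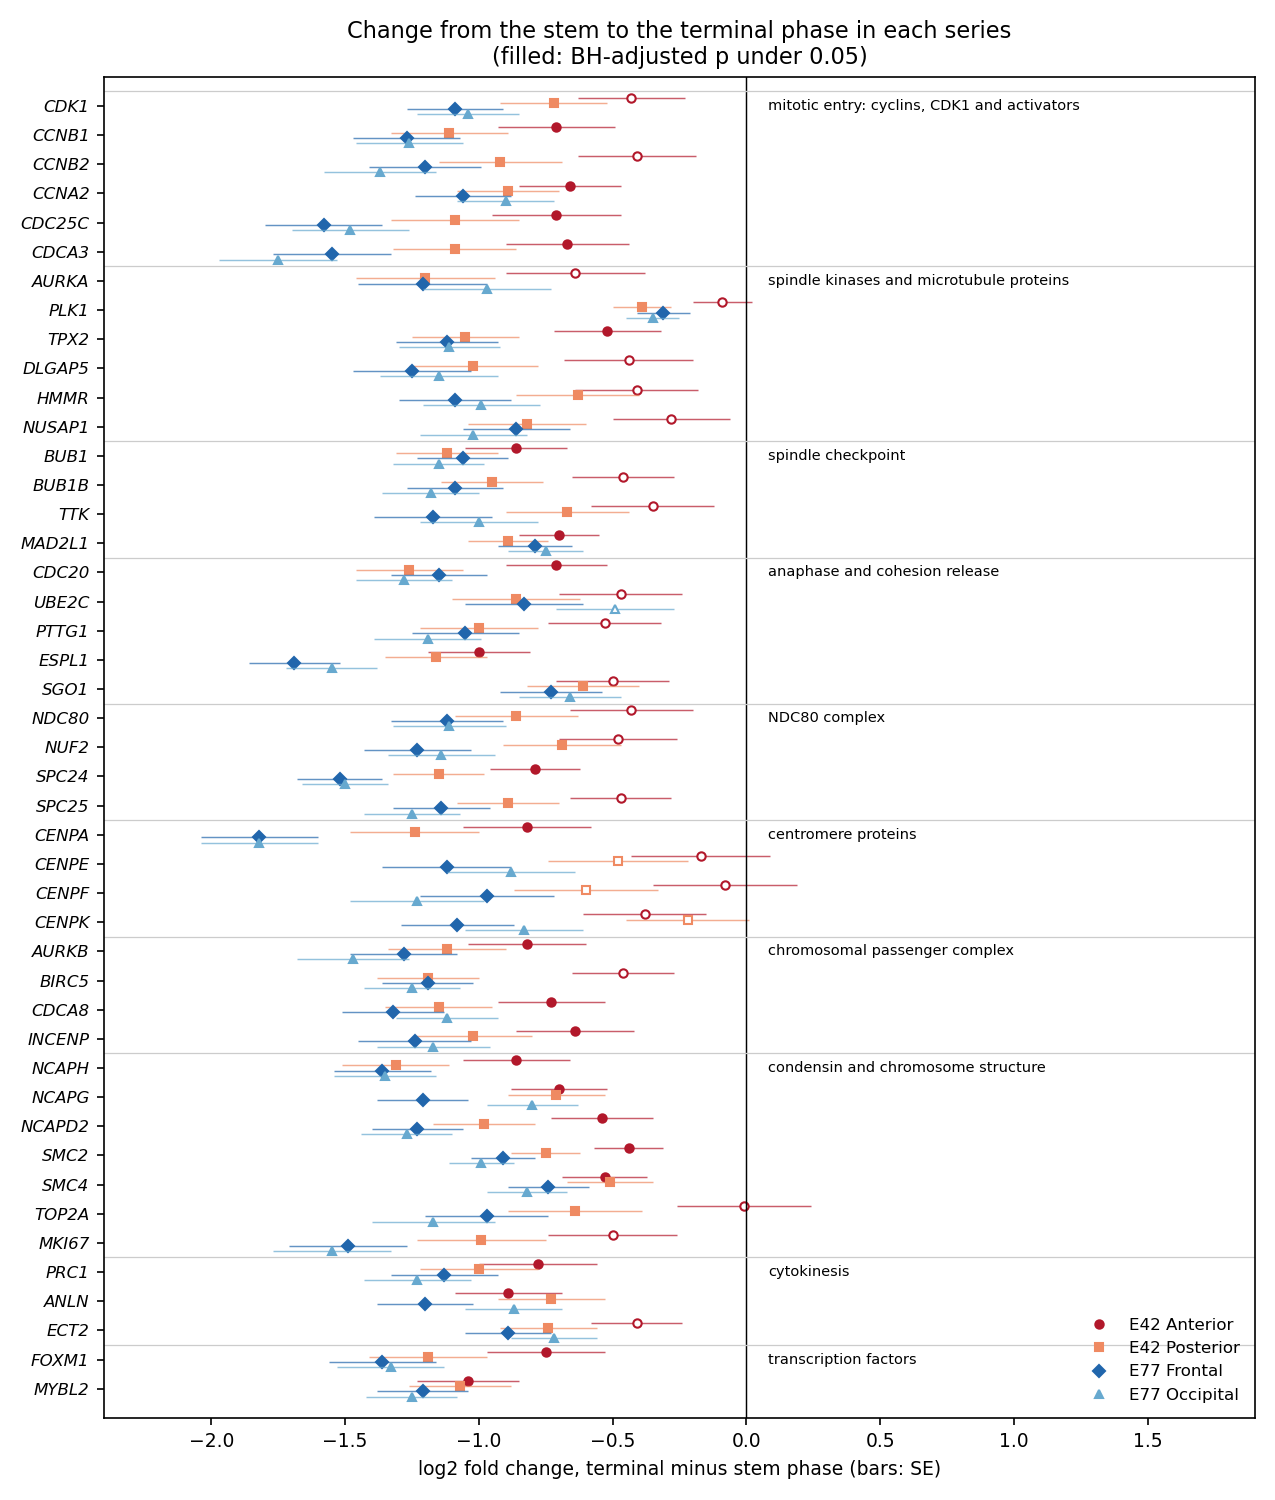
Log2 fold change from the stem to the terminal phase for the 45 genes in each of the 4 series, grouped by role, with bars of 1 SE and filled points at a BH-adjusted p under 0.05. All points lie left of 0, and the open points are mostly those of E42 Anterior, where 22 genes did not pass.

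The transition phase was compared with the phases on either side. Against the stem phase, 21 of 45 genes were lower in days 6 to 8 (median -0.24, beside 0.02 over all genes; 20% of all genes called lower). SPC24 fell by 0.64 ± 0.09, CENPA by 0.58 ± 0.12 and CDCA3 by 0.48 ± 0.12 (SE). SGO1, TOP2A, UBE2C and CENPF had estimates of -0.01, -0.02, 0.03 and 0.06 and did not pass. From the transition to the terminal phase all 45 fell (median -0.69; 19.2% of all genes called lower), led by ESPL1 at -0.96 ± 0.09, MKI67 at -0.95 ± 0.12 and CDC25C at -0.90 ± 0.12 (SE). Of 34 G1/S and replication genes, such as MCM helicase subunits and PCNA, 31 were already lower in the transition phase (median -0.50), and 33 fell from there to the terminal phase (median -0.55). The difference between the lists was not tested. The count of mitosis genes lower in the transition phase was 32 when day 1 was left out of the stem phase. It was 7 when each day was reduced to 1 value over the series.

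Day by day, the course differed between the series. From day 1 to day 5 the median step over the 45 genes was 0.59 in E42 Posterior on the log2 scale, with all 45 higher on day 5. It was 0.48 in E77 Occipital (43 higher), 0.25 in E77 Frontal (40 higher) and -0.02 in E42 Anterior (21 higher). From day 5 to day 6, the first day without FGF2, the median step was -0.53 in E42 Posterior and -0.36 in E77 Frontal, with all 45 lower in each. In E77 Occipital it was -0.37 with 43 lower, and in E42 Anterior it was 0.10 with 34 higher. These steps and those that follow lie between single libraries and have no test of their own. Steps were not counted over all genes, so the counts have no background share. In both E77 series the genes were then higher on day 7 than on day 6, by a median of 0.29 in Frontal and 0.27 in Occipital with 43 genes higher in each. The step from day 7 to day 8 was -0.68 and -0.21. In E42 Anterior the genes were higher again on day 11, with a median step of 0.29 from day 8 (43 higher), followed by one of -0.53 from day 11 to day 14 (45 lower).

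The highest day was day 5 for 43 of 45 genes in E42 Posterior and for 32 in E77 Frontal, and day 3 for 33 in E42 Anterior. In E77 Occipital it was day 3 for 20 and day 5 for 16. The lowest was day 17, the last E42 day, for 36 genes in E42 Posterior, but day 14 for 35 in E42 Anterior. In E77 Occipital it was day 20 for 37 genes, and in E77 Frontal day 20 for 26 and day 17 for 19. Highest and lowest days were not counted over all genes, so these counts have no background share either.

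**Figure D3:**
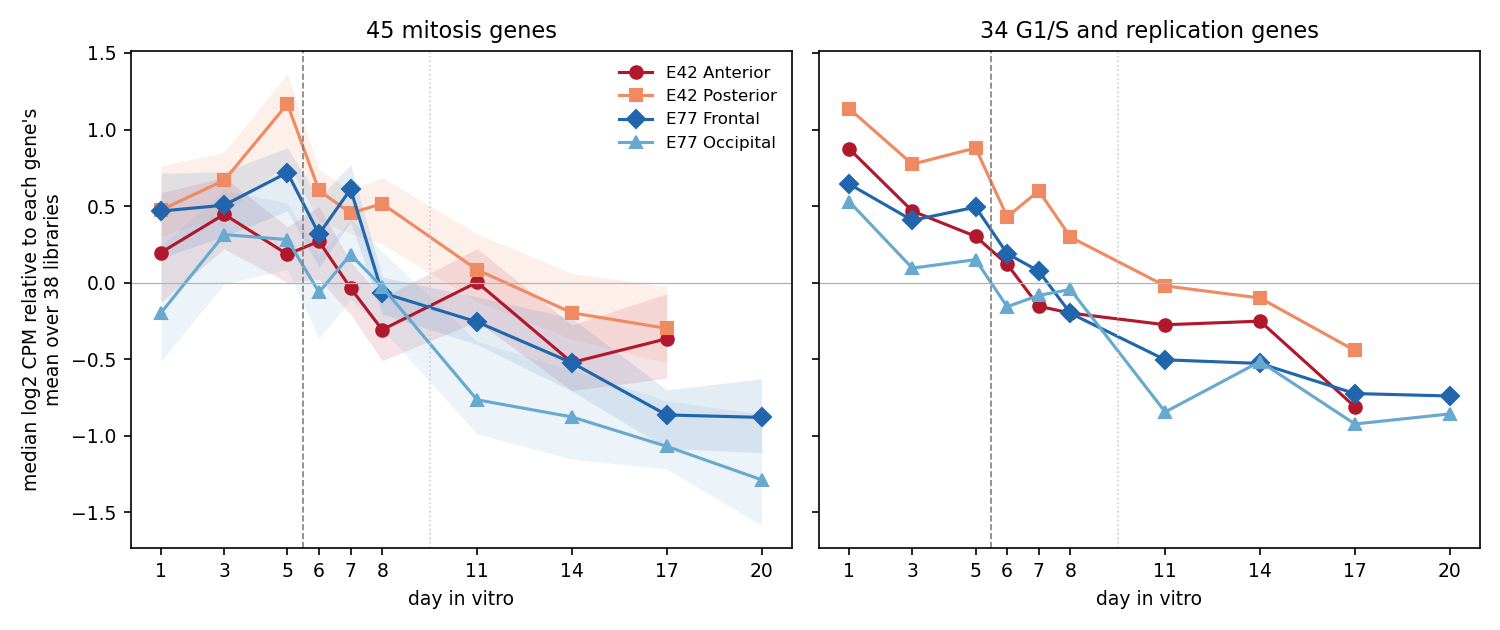
Median log2 CPM of the 45 mitosis genes (left, with the 10th to 90th percentile of genes shaded) and of 34 G1/S and replication genes (right), relative to each gene's mean over 38 libraries, against day in vitro. The dashed line marks the end of FGF2 and the dotted line the start of the terminal phase; the mitosis genes of E42 Posterior peak on day 5, whereas the G1/S genes are highest on day 1 in all 4 series.

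A slope over days 1, 3 and 5 shared by the 4 series was fitted, and 12 of 45 genes rose while 0 fell (median 0.08 log2 per day; 6.54% of all genes called higher and 6.67% lower). TOP2A rose by 0.15 ± 0.03 per day, NUSAP1 by 0.14 ± 0.03 and UBE2C by 0.13 ± 0.04 (SE). CENPF, SGO1, CDC25C, AURKB, NDC80, INCENP, FOXM1, NCAPD2 and CDCA8 also rose. AURKA had a slope of 0.16 ± 0.05 that did not pass (edgeR adjusted p = 0.069). Over the same days 16 of the 34 G1/S genes fell and 1 rose (median -0.09 per day). The count of 12 rested on single libraries. It was 27 without E42 Anterior day 5 and 23 without the E42 Anterior series. It was 1 without E42 Posterior day 5, 3 without E42 Posterior day 1, 2 without E77 Occipital day 1, 7 without E77 Frontal day 1 and 6 without E77 Frontal day 5. A difference in slope between the ages was called for 0 of 45 genes in edgeR, with 0 at an unadjusted p under 0.05, and for 0 in DESeq2 and limma (0.202% of all genes called).

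Day 6 was compared with day 5 within series. All 45 estimates were below 0 (median -0.33), yet 0 of 45 passed in edgeR, where 0.361% of all genes were called lower at the same adjusted threshold. At an unadjusted p under 0.05 in edgeR there were 28 of the 45. The share of all genes at that looser threshold is not given here, so the 28 have no background. The lowest adjusted p was 0.0807 for SPC24, at -0.58 ± 0.16 (SE). DESeq2 called 2 genes and limma 0. In edgeR, 10 were called without the E42 Anterior series and 1 without its day 5 library. A shared slope was also fitted over the terminal days, and 40 of 45 genes fell (median -0.06 log2 per day; 8.55% of all genes called lower). MKI67 fell by 0.10 ± 0.02 per day, CENPF by 0.10 ± 0.02 and TTK by 0.09 ± 0.02 (SE). AURKA, CDC20, PLK1, PTTG1 and SGO1 had slopes between -0.05 and -0.02 and did not pass. With day 20, which only the E77 series have, left out, 20 genes were called.

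The age of the tissue was compared next. Each age is 2 culture series, 1 from each region, so age and culture cannot be told apart. The change from stem to terminal phase was larger at E77 for 12 of 45 genes and smaller for 0 (median difference -0.39, E77 minus E42, beside 0.01 over all genes; 9.95% of all genes called lower). CENPA had a median of 33.1 CPM in the stem and 16.1 CPM in the terminal libraries at E42, and of 36.1 and 9.26 CPM at E77. The difference in its change was -0.79 ± 0.23 (SE; edgeR adjusted p = 0.0158). MKI67 had medians of 598 and 357 CPM at E42 and of 819 and 247 CPM at E77, a difference of -0.78 ± 0.23. CDCA3 had medians of 28.9 and 17.7 CPM at E42 and of 26.9 and 8.58 CPM at E77, a difference of -0.77 ± 0.23. The other 9 were CENPF, TOP2A, CENPK, CCNB2, NUF2, SPC24, ESPL1, SPC25 and SMC2, between -0.76 and -0.35. UBE2C and MAD2L1 had differences of 0.01 ± 0.23 and 0.02 ± 0.15 (SE).

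These calls were not stable. With E77 Occipital set against E42 Posterior alone, a restriction not planned at the outset, 0 of 45 passed. CENPA, MKI67 and CDCA3 then had differences of -0.57, -0.57 and -0.67. The count was 3 without day 1 in the stem phase, 2 without day 20, and between 3 and 18 when 1 library was left out. It was 6 or fewer without any of 18 of the 26 libraries compared. These were days 1, 5 and 11 of E42 Anterior, days 1, 3, 11, 14 and 17 of E42 Posterior, days 1, 3, 5, 14, 17 and 20 of E77 Frontal and days 3, 5, 17 and 20 of E77 Occipital.

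Levels at the 2 ages were compared within each phase. In the stem phase, with libraries of the same day compared, 15 of 45 genes were lower at E77 and 2 higher (median -0.17, beside -0.03 over all genes; 31.4% of all genes were called lower and 28.8% higher). UBE2C was the furthest apart, with a lowest, median and highest level of 38.5, 48.7 and 85.7 CPM at E42 and 19.2, 29.3 and 46.4 CPM at E77, overlapping ranges and a difference of -0.78 ± 0.14 (SE). BUB1, at -0.53 ± 0.11, and ANLN, at -0.50 ± 0.12, came next. MKI67 was higher at E77, with 633, 819 and 974 CPM against 482, 598 and 892 CPM (0.37 ± 0.09; edgeR adjusted p = 0.00174), as was CENPF (0.32 ± 0.12). Without the day block neither passed (edgeR adjusted p = 0.0693 and 0.133). In the transition phase 8 genes were lower (31.1% of all genes) and 3 higher (25.7%; CENPK 0.45 ± 0.13, MKI67 0.37 ± 0.10 and CENPF 0.37 ± 0.12). MKI67 and CENPF did not pass there without the day block (edgeR adjusted p = 0.0635 and 0.1). UBE2C at -0.58 ± 0.14, CDC20 at -0.53 ± 0.13 and CDCA3 at -0.42 ± 0.13 (SE) were the lowest.

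In the terminal phase 41 of 45 genes were lower at E77 and 0 higher (median -0.48, beside -0.02 over all genes; 24.4% of all genes called lower). CDCA3 had 13.1, 17.7 and 21.2 CPM at E42 (6 libraries) and 5.17, 8.58 and 12.2 CPM at E77 (8 libraries), with no overlap and a difference of -0.97 ± 0.14 (SE). SPC24, with 30.6, 41.5 and 42.8 CPM against 13.3, 19.2 and 28.3 CPM, did not overlap either and differed by -0.94 ± 0.10. TOP2A differed by -0.87 ± 0.11, with 280 to 470 CPM at E42 and 127 to 315 CPM at E77. AURKA (-0.35 ± 0.15), NCAPH (-0.24 ± 0.10), PLK1 (-0.15 ± 0.07) and SGO1 (-0.12 ± 0.11) did not pass. Markers of other cells differed between the ages in the same phase. Astrocyte markers were higher at E77 for 7 of 9 genes, with sums of 6802 to 13044 CPM against 2813 to 4542 CPM at E42. Oligodendrocyte lineage markers were higher for 7 of 7, with sums of 470 to 3709 CPM against 150 to 636 CPM. Lower at E77 were 8 of 10 neuronal, 9 of 11 fibroblast, 4 of 6 endothelial and 4 of 4 intermediate progenitor markers, and of the radial glia markers 4 were higher and 2 lower. Their part in the age difference of the mitosis genes was not tested. The share of all genes called higher at E77 is not given here, so the counts of higher markers cannot be read against it.

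The stem and transition comparisons turned on the E42 Anterior and E77 Frontal series. With E77 Occipital against E42 Posterior only, 40 genes were lower and 0 higher in the stem phase, 34 and 0 in the transition phase and 44 and 0 in the terminal phase, with medians of -0.61, -0.50 and -0.76. MKI67 then differed by 0 in the stem phase and 0.03 in the transition phase, and CENPF by -0.13 and -0.03. This pair was not planned at the outset. It sets the region with lower levels at E77 against the region with higher levels at E42. E77 Frontal was not compared with E42 Anterior in the same way, so these counts do not describe the ages as a whole. Single libraries also moved the counts. In the stem phase 25 genes were lower without E42 Anterior day 5 or without E42 Posterior day 3. There, 1 gene was higher without either of those 2 libraries, without E77 Frontal day 1 or without E77 Occipital day 3. In the transition phase 17 were lower without E77 Frontal day 7. There were 5 without E42 Posterior day 8, E77 Frontal day 6 or E77 Occipital day 6, 4 without E77 Frontal day 8 and 3 without E42 Anterior day 6. Without E42 Posterior day 8, 5 were higher.

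The 2 regions of each age differed in opposite directions. At E42, 42 of 45 genes were lower in Anterior than in Posterior over all days (median -0.43, beside -0.06 over all genes; 30.3% of all genes called lower). NUF2 was the furthest apart, at -0.64 ± 0.09 (SE), with 19.2, 29.2 and 40.2 CPM in the 9 Anterior libraries and 29.0, 43.8 and 63.0 CPM in the 9 Posterior libraries. CENPK differed by -0.60 ± 0.11 and CDC25C by -0.55 ± 0.10. ANLN (0.05 ± 0.10), SPC24 (-0.01 ± 0.08) and BIRC5 (-0.13 ± 0.09) did not pass. ANLN was highest in Anterior on day 1, at 186 CPM against 92.2 CPM in Posterior. On matched days, 24 of the 45 genes were above Posterior on 0 of 9 days, 12 on 1 day and 9 on 2 to 5 days. Matched days were not counted over all genes. The fibroblast markers were higher in Anterior for 11 of 11 genes (median 7.54), as were 5 of 6 endothelial markers. Of the calls over all genes, 45.3% were higher in Anterior. Neuronal markers were lower in Anterior for 7 of 10 genes and intermediate progenitor markers for 4 of 4. The part of these markers in the lower level of the mitosis genes was not tested.

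At E77, 39 of 45 genes were higher in Frontal than in Occipital (median 0.35, beside -0.01 over all genes; 16.3% of all genes called higher). CENPA had 9.23, 24.9 and 46.2 CPM in the 10 Frontal libraries and 6.15, 16.3 and 33.7 CPM in the 10 Occipital libraries, ranges that overlap across days, and differed by 0.63 ± 0.08 (SE). CDK1 differed by 0.53 ± 0.09 and BIRC5 by 0.53 ± 0.09. CENPK, MAD2L1, MYBL2, PLK1, PTTG1 and SGO1 did not pass. On matched days, which were not counted over all genes, 13 genes were higher in Frontal on 10 of 10 days, 18 on 9 days and 14 on 5 to 8 days. Oligodendrocyte lineage markers were lower in Frontal for 6 of 7 genes (median -1.02). Their sums were 430 to 585 CPM in Frontal and 912 to 1056 CPM in Occipital in the stem phase, 304 to 518 and 905 to 1036 CPM in the transition phase, and 470 to 1340 and 1506 to 3709 CPM in the terminal phase, apart in each. Fibroblast markers were higher in Frontal for 7 of 11 genes, neuronal markers for 5 of 10 and radial glia markers for 5 of 9. The part of these markers in the region difference was not tested. The share of all genes called lower in Frontal is not given here, so the count of lower markers cannot be read against it.

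The difference between these 2 region effects, a comparison added after the values were seen, was above 0 and passed for all 45 genes (median 0.73, beside 0.05 over all genes; 20.6% of all genes called higher). CDCA3 had the largest, 1.05 ± 0.15 (SE; edgeR adjusted p = 4.12e-06), then NUF2 at 0.99 ± 0.12 and CENPE at 0.95 ± 0.16, and PLK1 the smallest, at 0.31 ± 0.07. The region names differ between the ages, and each region effect rests on 1 culture series a side, so region and culture cannot be told apart.

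**Figure D4:**
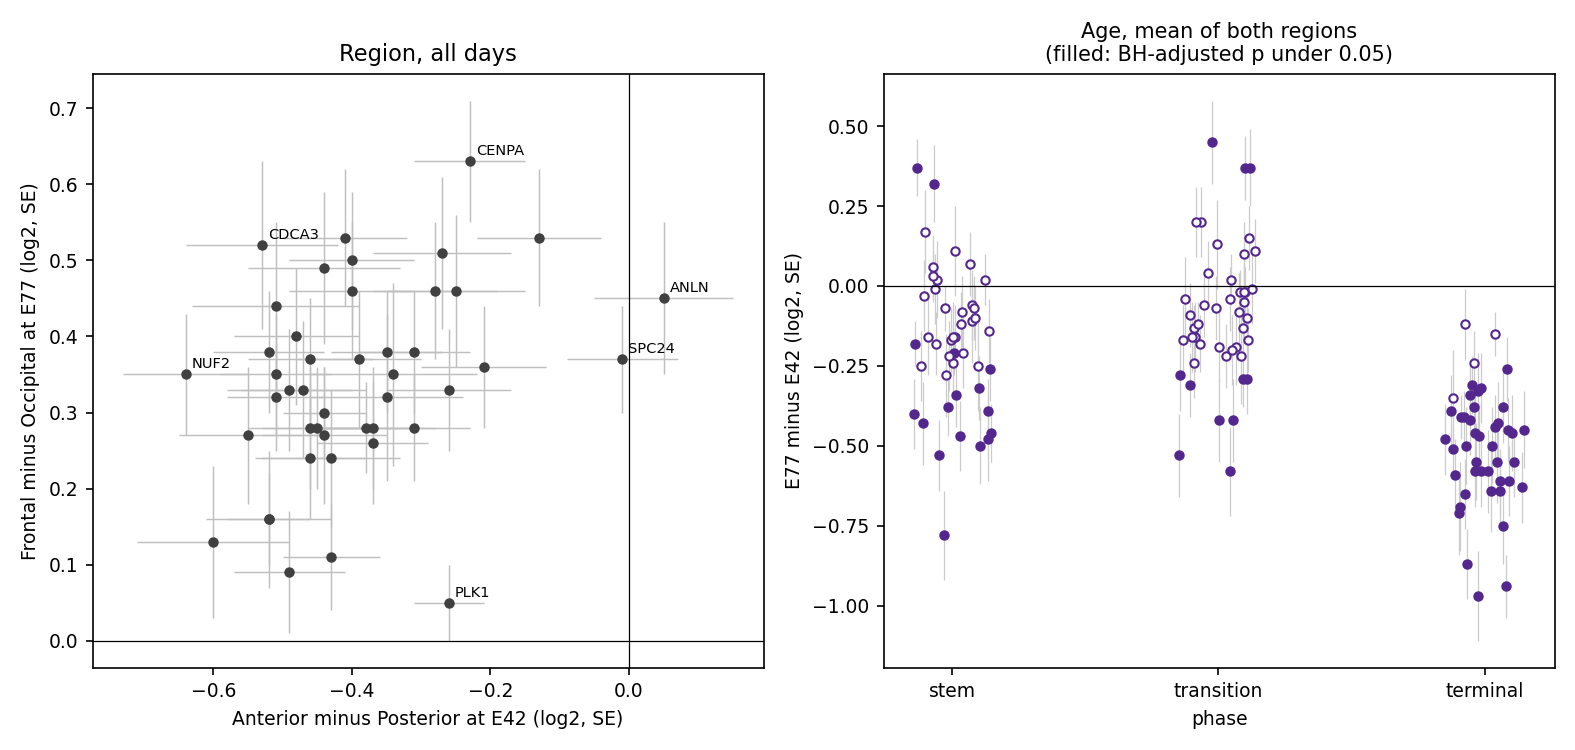
Left, the region difference of each of the 45 genes at E77 (Frontal minus Occipital) against that at E42 (Anterior minus Posterior), in log2 units with bars of 1 SE; nearly all points lie at negative values at E42 and all lie at positive values at E77. Right, the age difference (E77 minus E42) of the 45 genes in the 3 phases, with bars of 1 SE and filled points at a BH-adjusted p under 0.05; the points spread around 0 in the stem phase and lie below 0 in the terminal phase, where 41 passed.

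Other genes of cell division were counted from fixed lists for the mean change from stem to terminal phase. All 12 mitotic kinesins, the motors that slide and hold spindle microtubules, fell (median -0.90), from -1.17 ± 0.12 for KIF18B to -0.53 ± 0.10 for KIF20B (SE). Of 29 further kinetochore genes, 27 were in the table and all 27 fell (median -0.82), ZWINT by 1.20 ± 0.09 and SKA2 by 0.12 ± 0.05. SKA2 did not pass in 6 of 26 fits that left out 1 library. With 1 value per day it did not pass either (limma adjusted p = 0.136). All 34 G1/S and replication genes fell (median -1.09), with E2F1, the factor that opens S phase, at -1.61 ± 0.12 and cyclin E2 (CCNE2) at -0.31 ± 0.08.

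Subunits of machines that also work outside mitosis were read against the 30.4% of all genes called lower and the 31.9% called higher. Of the 3 subunits particular to condensin II, NCAPG2 (-0.88 ± 0.07) and NCAPD3 (-0.76 ± 0.06) fell, and NCAPH2 had a value of -0.09 ± 0.06 that did not pass. Of 13 cohesin genes, 7 fell and 2 rose (median -0.10), with CDCA5 (sororin) at -1.10 ± 0.08 and the acetyltransferase ESCO1 at 0.37 ± 0.06. Of 16 subunits and partners of the anaphase-promoting complex, 4 fell and 5 rose (median -0.01), with ANAPC1 at -0.45 ± 0.05 and CDC16 at 0.36 ± 0.05, counts near those shares. Of 12 genes of the DREAM complex and the RB family, which hold cell cycle genes silent in resting cells, 7 fell and 3 rose (median -0.20), with TFDP2 at -0.76 ± 0.10 and LIN37 at 0.25 ± 0.08 (SE). LIN37 did not pass without day 1 in the stem phase (edgeR adjusted p = 0.145) or with 1 value per day (limma adjusted p = 0.109).

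**Figure D5:**
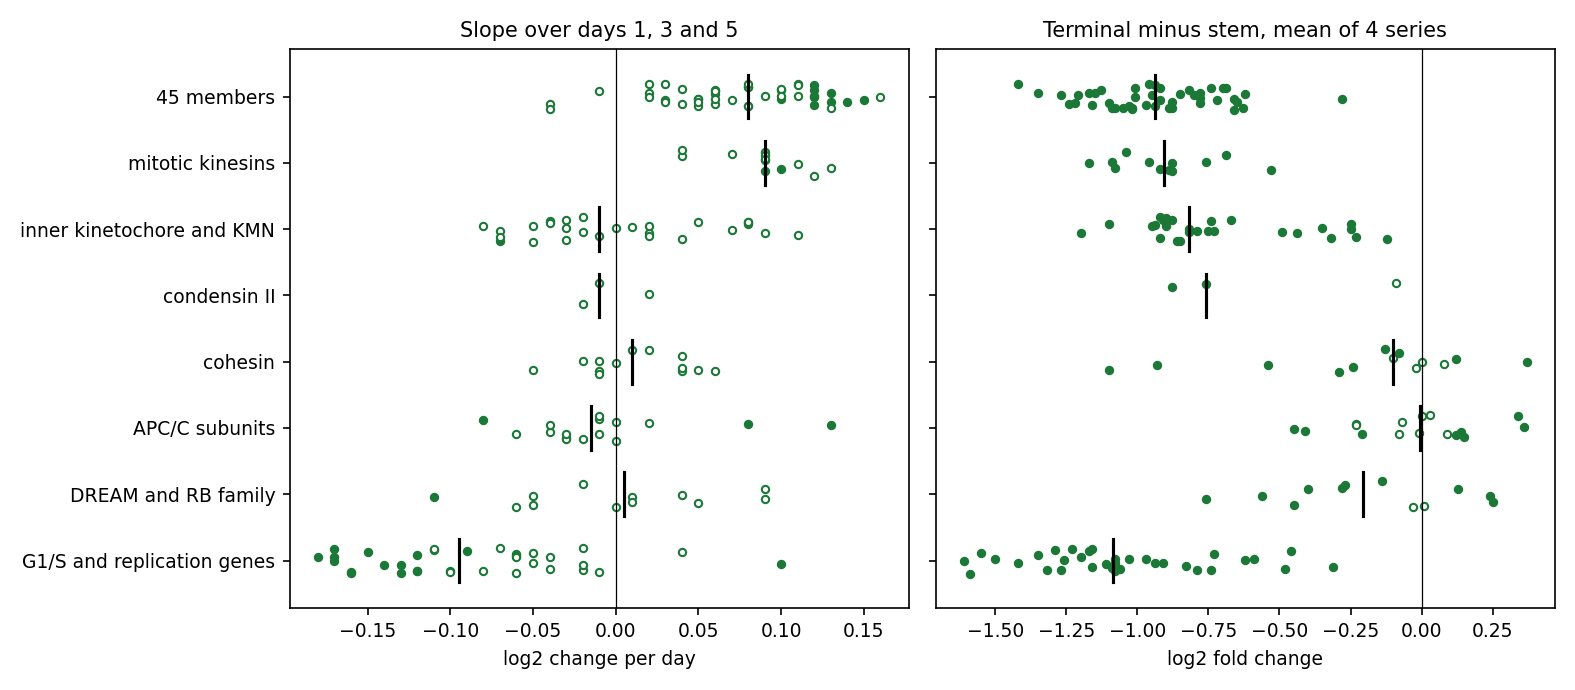
Left, log2 change per day over days 1, 3 and 5; right, log2 fold change from stem to terminal phase averaged over the 4 series, for the 45 mitosis genes and 7 other lists; each point is a gene, filled at a BH-adjusted p under 0.05, and the black bar is the median. The medians of the mitosis genes and of the G1/S genes lie on opposite sides of 0 on the left (0.08 and -0.09 per day) and both below 0 on the right (-0.94 and -1.09).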

How the data were processed

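The authors deposited whole read counts per gene and RPKM values for 38 libraries, per the file headers. Per the submitters' processing notes, STAR and featureCounts were used; the genome build and annotation are not given in the sources used here. The 45 members, their role groups and the other lists were chosen with earlier results of these data known. Genes were filtered with filterByExpr on the 12 groups, counts were scaled by TMM, and edgeR 4.0.16 (R 4.3.3) quasi-likelihood tests were run with Benjamini-Hochberg adjustment over 20794 genes (threshold 0.05). Phase comparisons used group means over all libraries. Age and region comparisons added the day as a block, taken from the labels: deviations of same-day libraries correlated above 0.1 in 44 of 55 pairs (-0.096 to 0.68). Alternatives were DESeq2 1.42.0, limma 3.58.1 on log2 of the deposited RPKM plus 1 or 0.1, other scaling and filters, and libraries left out, the last with the dispersion trend held fixed. Library values were named for members by a rule on role, level and size of change. Scripts were tested on simulated data.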

Additional observations from a re-analysis of the deposited data

Results flagged for a closer look

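PTTG1 in the terminal libraries of E77 Frontal was 30.7 CPM on day 11 and 20.9, 19.9 and 21.2 CPM on days 14, 17 and 20, a gap large for a group of 4. Of 80 sets of a gene and a group of this size checked, 1 stood out, and chance alone would give about 1 in 20.

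Effects that differed between groups by a direct test were of 2 kinds. The change from the stem to the terminal phase was larger at E77 than at E42 for 12 of 45 genes, led by CENPA (-0.79), MKI67 (-0.78) and CDCA3 (-0.77, log2, E77 minus E42). The region effect was higher at E77 than at E42 for 45 of 45 genes, led by CDCA3 (1.05), NUF2 (0.99) and CENPE (0.95); this comparison was added because the 2 region effects had been seen to differ in direction, and it is no independent support for that. Both tests set the 2 cultures of 1 age against the 2 of the other, and the first count was 0 between E77 Occipital and E42 Posterior alone.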

How the results depend on the processing

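The fall of all 45 genes from stem to terminal phase kept its count of 45 in every alternative run, and no gene or median of that comparison changed sign. The age comparisons, the day slopes and the step from day 5 to day 6 depended on single choices and libraries, and 1 library per series and day limits all of them; for the values below the cause was not tested, except where fewer libraries or genes enter by construction.

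Counts are members unless all genes are named. For the larger change at E77, 12 became 6 with no filter, 19 with limma at a pseudocount of 0.1, 3 without day 1, 2 without day 20 and 0 between E77 Occipital and E42 Posterior, where all genes lower went from 2070 to 551. That same restriction gave 40 lower and 0 higher in the stem phase (all genes lower 4289, not 6529) and 34 lower and 0 higher in the transition phase, and turned CENPF to -0.13 and -0.03. Without the replicate block, the 2 members higher at E77 in the stem phase became 0, and in the transition phase 3 higher became 1 and 8 lower became 4; the block changed no other call count by over 1.5 times. Limma gave 5 higher and 4 lower there at both pseudocounts, and the fit to only the libraries compared 5 lower.

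For day 6 against day 5, DESeq2 called 2 members and 412 genes lower, not 75, and the fit without E42 Anterior 10 and 210. The stem slope called 20 with DESeq2 and 23 without E42 Anterior, where 895 of all genes fell, not 1387. The terminal slope called 20 members and 601 genes, not 1778, without day 20. For the transition phase, 21 became 32 without day 1 and 7 with 1 value per day, which also cut all genes lower from 4164 to 1872, and from the transition to the terminal phase from 4000 to 1274. All genes lower in E77 Occipital went from 4069 to 2679 in the fit to its own libraries. All genes higher in the difference of region effects went from 4291 to 6642 and 6670 with limma. The E77 region test of change called 201, 587, 151 and 145 genes, not 317, with no filter, with DESeq2, without day 1 and without day 20, and its median turned to 0.05 without day 1. The age difference of stem slopes called 75, 294, 3 and 4 genes, not 42, with no filter, DESeq2 and limma at pseudocounts of 1 and 0.1. TOP2A in E42 Anterior turned to 0.04 with limma.

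Leaving out 1 library gave 3 to 18 members and 1319 to 3054 genes for the larger change at E77. It gave 12 to 25 lower and 1 to 2 higher in the stem phase, and 3 to 17 lower and 3 to 5 higher in the transition phase. It gave 0 to 1 members and 1 to 147 genes for day 6, 1 to 27 members, 775 to 1373 genes higher and 683 to 1520 lower for the stem slope, and 633 to 2593 genes for the terminal slope. It gave 14 to 31 members in E42 Anterior, 705 to 1463 genes for the E42 and 146 to 502 for the E77 region test of change, and 0 to 122 for the age difference of slopes. The median of the E77 region test then lay between -0.15 and 0.10, and that of the age difference of slopes between -0.04 and 0.09. In E42 Anterior, TOP2A ranged from -0.22 to 0.15, CENPF from -0.36 to 0.08 and CENPE from -0.42 to 0.02.

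The percentage of calls that were higher shifted by over 10 points in several runs. DESeq2 took it from 73.8 to 56.8 for the age difference of slopes. Without day 1 it went from 48.7 to 59.6 for the age and from 41.6 to 31.1 for the E77 region difference of change. Without day 20 it went from 50.9 to 66.1 for the terminal slope. Limma at a pseudocount of 1 shifted it in 9 comparisons. Limma at a pseudocount of 0.1 moved the median of all genes to -0.16 for the E42 regions and 0.18 for the difference of region effects. It moved the percentage of calls that were higher by over 10 points in 9 comparisons: from 54.1 to 42.7 for terminal against transition, 48.7 to 32.3 for the age and 37.3 to 59 for the E42 region difference of change, 47.8 to 58 and 45.3 to 55.5 for age in the stem and transition phases, 45.3 to 30.1 for the E42 regions, 53.4 to 72.3 for the difference of region effects, 73.8 to 100 for the age difference of slopes and 21.1 to 56.2 for day 6.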
